A study of Mus musculus with 2 samples.

Results

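The matrix metalloproteinases and their inhibitors were followed in immune cells of mouse pancreatic islets as 9 genes of 32285 in the deposited expression table. They were chosen by symbol: Mmp9, Mmp10, Mmp12, Mmp13, Mmp14 and Mmp19 for the proteases, and Timp1, Timp2 and Timp3 for the inhibitors. The islets came from 6 to 8 wild-type male C57BL/6J mice and were pooled. Live cells positive for the leukocyte antigen CD45 and negative for the epithelial antigen Epcam were sorted and stained with barcoded antibodies against CD9 and CD206. The study concerns islet macrophages, and its 1 pooled sample was read as an mRNA library and an antibody library. The labels give no age for the mice, and no mouse, day or treatment was replicated, so the intervals below are 95% intervals for counting error alone and no p-value is given.

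Matrix metalloproteinases are zinc-dependent enzymes that are made as inactive precursors and cut collagens, elastin, other matrix proteins and cell surface molecules. Most are secreted, and a few are anchored in the plasma membrane. Tissue inhibitors of metalloproteinases block the active enzymes by binding their catalytic site. Macrophages are a known source of several of these enzymes, among them the elastase encoded by Mmp12.

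Of 2237 barcodes, 2175 were kept. Macrophages were the 1669 cells with at least 5000 RNA molecules (unique molecular identifiers, UMIs) and at least 2000 UMIs per 1000000 (CPM) from C1qa, C1qb and C1qc together. The other 294 cells with at least 5000 UMIs had median C1q levels of 0 to 74.0 CPM in the classes named from markers. They fell into 99 T/NK cell-like, 52 dendritic cell-like, 39 endocrine-like, 24 B cell-like, 16 monocyte-like and 16 endothelial-like cells, 8 unnamed cells, and 40 cells that clustered with macrophages but had C1q under the limit. The median depth was 20843 UMIs in macrophages and 14105 UMIs in other cells. Of the 1669 macrophages, 1638 lay in macrophage clusters, 21 in the dendritic cell-like cluster, 7 in the endothelial-like cluster, 2 in the endocrine-like cluster and 1 in the T/NK cell-like cluster. Endothelial- and endocrine-like cells were present although the sort selected CD45+ Epcam- cells.

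In build GRCm38.p6 (mm10), Mmp13 (chr9:7272514-7283333), Mmp12 (chr9:7344397-7360461) and Mmp10 (chr9:7502342-7510242) lay in 1 stretch of chromosome 9 that also holds Mmp1b, Mmp3, Mmp8, Mmp27, Mmp20 and Mmp7. In macrophages this stretch gave 164496 UMIs of Mmp12, 16491 of Mmp13 and 230 of Mmp10, against 22 of Mmp8, 13 of Mmp3, 7 of Mmp27, 4 of Mmp20 and 0 of Mmp1b and Mmp7. Mmp14 was on chromosome 14 and Timp2 on chromosome 11. Mmp19 and Timp3 were on chromosome 10, Mmp9 on chromosome 2 and Timp1 on the X chromosome. The 250 bases before the annotated starts of the 5 members with the most macrophage UMIs among those present in the RefSeq promoter table are given below, with Mmp12 at both of its annotated starts, so that the chromosome 9 genes can be read beside Mmp14 and Timp2. Capitals mark matches to the AP-1 motif TGANTCA, the Runx motif AACCACA (both on either strand) and the TATA box TATAAA on the gene's strand.
Mmp13, chr9:7272264-7272513, plus strand: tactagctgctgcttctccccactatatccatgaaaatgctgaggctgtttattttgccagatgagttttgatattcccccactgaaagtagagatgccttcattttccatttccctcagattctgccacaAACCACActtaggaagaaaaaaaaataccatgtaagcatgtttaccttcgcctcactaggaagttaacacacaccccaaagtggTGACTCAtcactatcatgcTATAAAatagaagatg
Mmp12, first start, chr9:7344147-7344396, plus strand: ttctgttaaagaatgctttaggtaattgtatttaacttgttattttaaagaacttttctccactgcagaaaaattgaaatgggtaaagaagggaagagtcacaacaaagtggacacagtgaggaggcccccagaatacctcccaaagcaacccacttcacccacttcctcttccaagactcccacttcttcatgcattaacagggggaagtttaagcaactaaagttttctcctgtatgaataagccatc
Mmp12, second start, chr9:7347124-7347373, plus strand: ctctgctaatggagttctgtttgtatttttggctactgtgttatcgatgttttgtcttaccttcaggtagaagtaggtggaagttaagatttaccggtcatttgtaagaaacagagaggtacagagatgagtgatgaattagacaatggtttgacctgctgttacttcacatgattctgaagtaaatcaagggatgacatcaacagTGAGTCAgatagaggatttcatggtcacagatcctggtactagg
Mmp10, chr9:7502092-7502341, plus strand: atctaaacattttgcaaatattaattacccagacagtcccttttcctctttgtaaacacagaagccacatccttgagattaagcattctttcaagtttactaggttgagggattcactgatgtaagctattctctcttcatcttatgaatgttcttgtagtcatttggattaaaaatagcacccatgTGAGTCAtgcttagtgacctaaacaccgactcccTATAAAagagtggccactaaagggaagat
Mmp14, chr14:54431348-54431597, plus strand: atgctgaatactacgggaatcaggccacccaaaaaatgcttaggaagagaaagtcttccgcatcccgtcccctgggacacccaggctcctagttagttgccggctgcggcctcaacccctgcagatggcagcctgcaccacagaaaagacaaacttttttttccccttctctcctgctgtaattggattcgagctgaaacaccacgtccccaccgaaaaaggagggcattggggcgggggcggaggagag
Timp2, chr11:118355412-118355661, minus strand: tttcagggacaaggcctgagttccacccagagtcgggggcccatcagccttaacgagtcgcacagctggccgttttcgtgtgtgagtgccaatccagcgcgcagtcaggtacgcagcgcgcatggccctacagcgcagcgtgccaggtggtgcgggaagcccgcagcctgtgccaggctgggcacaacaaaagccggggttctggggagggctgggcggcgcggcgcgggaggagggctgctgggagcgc
The AP-1 letters began 35 bases before the start of Mmp13, 63 bases before that of Mmp10 and 44 bases before the second start of Mmp12. TATAAA began 16 bases before the start of Mmp13 and 29 bases before that of Mmp10, and 5 bases after the second start of Mmp12. The Runx letters began 119 bases before the start of Mmp13. From 250 bases before to 50 bases after the start, TGANTCA was found in 7.81% of 32851 promoters, AACCACA in 5.27% and TATAAA in 8.32%. None of the 3 motifs was found in those windows of Mmp14, Timp1, Timp2 or Timp3, nor at the first start of Mmp12, and the table held no window for Mmp9 or Mmp19.

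Mmp12, Mmp13, Mmp14, Mmp10 and Timp2 were higher in macrophages than in other cells, and Mmp19, Timp1 and Timp3 were lower. That is 5 of the 8 members with at least 20 UMIs at least 1.5-fold higher and 3 of 8 at least 1.5-fold lower, where 15.6% and 38.1% of all genes with at least 100 UMIs passed these limits. With a C1q limit of 4000 CPM for macrophages, the 5 higher ratios were between 1.78 for Mmp10 and 2.52 for Mmp14. The Timp1 and Timp3 transcripts of the other cells lay mostly in the 16 endothelial-like cells. The cluster of these cells passed 8 of 8 endothelial markers. It also passed 2 of 9 fibroblast or stellate markers (Col3a1 and Rgs5) and 2 of 7 migratory dendritic cell markers.

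**Figure D1:**
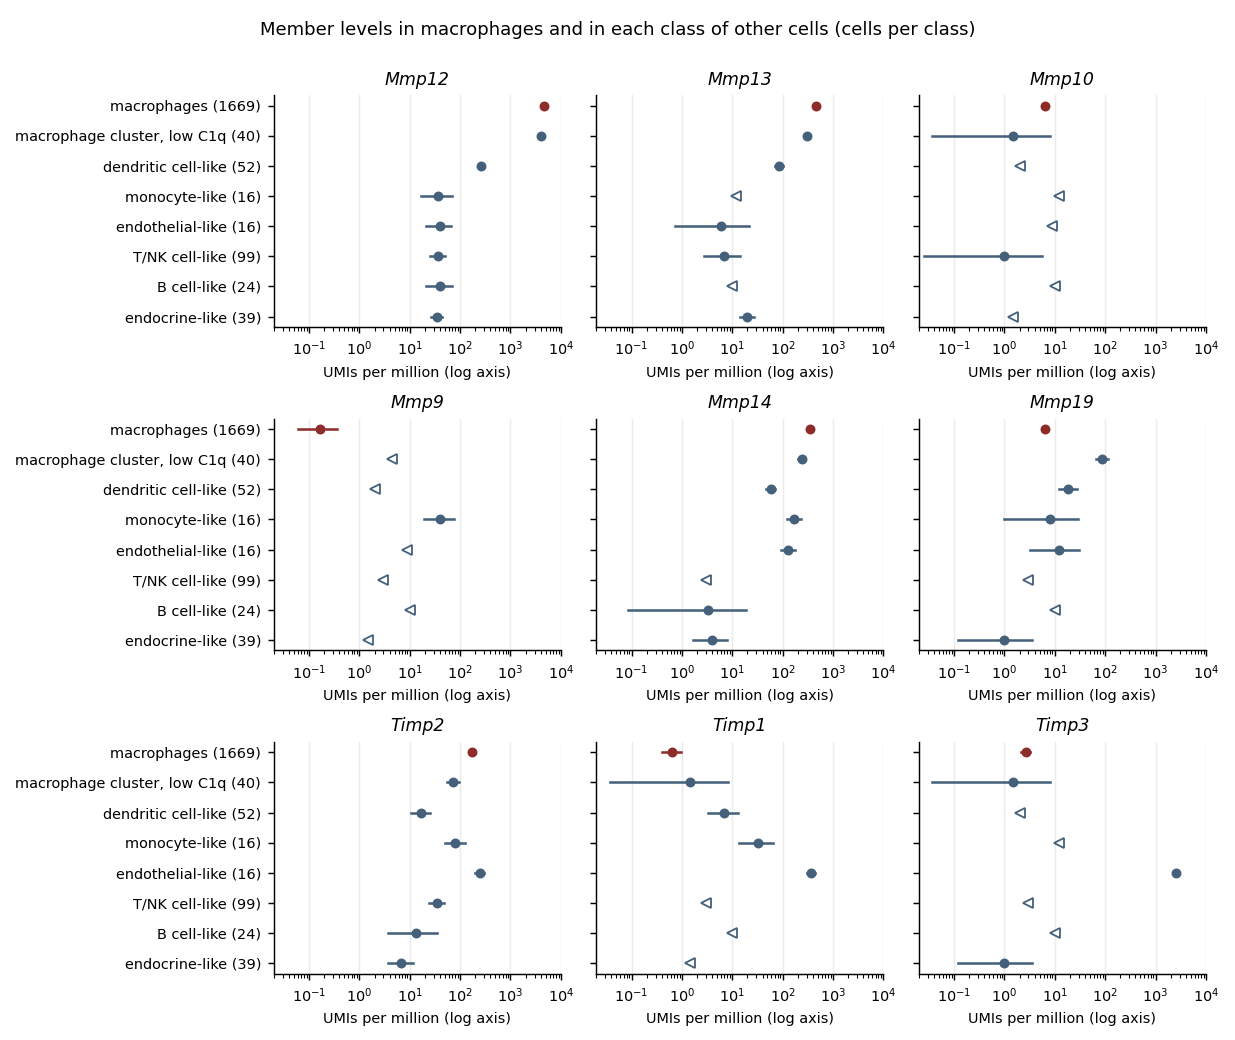
Level of each of the 9 genes in CPM (log axis) in macrophages (red, top) and in 7 classes of other cells (blue), with the number of cells in brackets. Points are summed levels, lines Poisson 95% intervals, and open triangles the level that a count of 0 allows (3 UMIs). Timp3 stands at 2599 CPM in endothelial-like cells and Mmp12 at 4556 CPM in macrophages.

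Mmp12, macrophage elastase, was found in 1587 of 1669 macrophages (95.1%), and in 87.4% after each cell was thinned to 5000 UMIs. Its level was 4556 CPM (4534 to 4578) in macrophages, against 525 CPM in other cells, a ratio of 8.68 (8.39 to 8.995). Most of the other cells' transcripts, 2707 of 3220 UMIs, were in the 40 cells of macrophage clusters with low C1q, at 3984 CPM. Without those 40 cells the ratio was 48.5 (44.4 to 52.97). The next level was 257 CPM in dendritic cell-like cells. Monocyte-, endothelial-, T/NK, B and endocrine-like cells ran from 34.2 to 40.03 CPM with overlapping intervals. In T/NK cell-like cells, which are not known as a source of this elastase, 33.3% held a UMI at a median depth of 9623 UMIs. Their level was 0.788% of the macrophage level, beside 0.856% for C1qa, 1.26% for Apoe and 0.435% for Lyz2. Whether these UMIs were background RNA from macrophages was not tested. Dendritic cell-like cells stood above the T/NK level, at 5.65% of the macrophage level, where C1qa stood at 1.89%.

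Mmp13, a collagenase that cuts fibrillar collagen, was found in 838 macrophages (50.2%), and in 34.8% after thinning. T/NK cell-like cells held it in 7.07% before and 4.04% after thinning. The level was 457 CPM (450 to 464) in macrophages, against 62.4 CPM in other cells, a ratio of 7.32 (6.61 to 8.12). Low-C1q cells of macrophage clusters followed at 311 CPM. Dendritic cell-like cells had 84.0 CPM, but 68 of their 121 UMIs came from 1 cell. Monocyte- and B cell-like cells had 0 UMIs, which allows up to 12.1 and 10.0 CPM.

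Mmp10, a stromelysin that also activates other metalloproteinases, had 230 UMIs in 35 macrophages (2.10%; 1.46 to 2.90) and 2 UMIs in other cells, a ratio of 19.5 (5.35 to 162). Mmp9, a gelatinase of neutrophils and monocytes, had 6 UMIs in 4 macrophages. All 10 of its UMIs in other cells were in 3 of the 16 monocyte-like cells, at 40.3 CPM (19.3 to 74.1). The cluster of these cells passed 8 of 8 monocyte markers and also 5 of 8 neutrophil markers, among them S100a8, S100a9 and Retnlg. With 16 UMIs in all, Mmp9 was not counted in the comparison.

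Mmp14, the membrane-anchored protease that cuts pericellular collagen and activates the precursor of MMP2 together with TIMP2, was found in 1527 macrophages (91.5%). Its level was 344 CPM (338 to 350) in macrophages, against 55.7 CPM in other cells, a ratio of 6.18 (5.55 to 6.90). Below macrophages came low-C1q cells of macrophage clusters at 241 CPM, monocyte-like cells at 169 CPM and endothelial-like cells at 129 CPM, and the intervals of the last pair overlapped. Dendritic cell-like cells had 58.3 CPM, and 0 UMIs were counted in 99 T/NK cell-like cells, which allows up to 2.99 CPM. Mmp2, whose product MMP14 activates, had 29 UMIs in macrophages and 14 in other cells (ratio 0.352; 0.180 to 0.721).

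Mmp19, a secreted protease of broad substrate range, was the 1 metalloproteinase gene among those counted that was lower in macrophages, at 6.37 CPM in 83 cells (4.97%), against 15.3 CPM in other cells (ratio 0.416; 0.326 to 0.535). Of the 94 UMIs in other cells, 59 were in the low-C1q cells of macrophage clusters, at 86.8 CPM, and without those cells the ratio was 0.993 (0.694 to 1.46). Dendritic cell-like cells followed at 18.7 CPM (12.3 to 27.3). Endothelial- and monocyte-like cells had 12.0 and 8.06 CPM, with intervals that overlapped each other and that of dendritic cell-like cells.

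Timp2, the inhibitor that binds MMP14 at the cell surface, was found in 1510 macrophages (90.5%; 54.8% after thinning) at 175 CPM (171 to 179). Other cells had 37.5 CPM, a ratio of 4.67 (4.09 to 5.35). Endothelial-like cells were higher still, at 243 CPM (193 to 302). Monocyte-like cells had 80.6 CPM, low-C1q cells of macrophage clusters 73.6 CPM and T/NK cell-like cells 34.9 CPM. The T/NK level was 19.9% of that of macrophages, above the 0.788% for Mmp12 in the same cells.

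Timp1, a soluble inhibitor that many cells make when stimulated, had 23 UMIs in 8 macrophages, and 16 of the 23 were in 1 cell of the dendritic cell-like cluster. The level was 0.637 CPM in macrophages, against 22.8 CPM in other cells (ratio 0.0279; 0.0171 to 0.0436). Endothelial-like cells held 121 of the 140 UMIs in other cells, at 364 CPM, in 6 of 16 cells. Of these, 55 UMIs were in 1 cell, and the level was 213 CPM without it. Monocyte-like cells had 32.2 CPM, with 7 of 8 UMIs in 1 cell and 4.49 CPM without it. Leaving out the endothelial-like cells gave a ratio of 0.195.

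Timp3, an inhibitor that binds to the extracellular matrix, had 865 of its 868 UMIs in other cells within the endothelial-like class, where all 16 cells held it, at 2599 CPM (2428 to 2778). Macrophages had 96 UMIs in 45 cells, 2.66 CPM against 141 CPM in other cells (ratio 0.0188; 0.0151 to 0.0232). Of those 96 UMIs, 40 were in the 7 macrophages of the endothelial-like cluster. Without endothelial-like cells among the other cells, 3 UMIs were left there and the ratio was 5.14 (1.71 to 25.4). The genes Syn3 and Syn1, which overlap Timp3 and Timp1, had 10 and 18 UMIs in macrophages and 37 and 128 UMIs in other cells. Cep295nl overlaps Timp2 and Tmem198b overlaps Mmp19, and their UMIs are not given here. The sources used here do not say whether counting used the strand.

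The balance of proteases and inhibitors differed between classes. Macrophages had 30.1 UMIs of the 6 proteases per UMI of the 3 inhibitors. The low-C1q cells of macrophage clusters had more, 60.4, dendritic cell-like cells 17.7, monocyte-like cells 2.25 and endothelial-like cells 0.0581. Among macrophage UMIs of the 6 proteases, 84.8% were of Mmp12, 8.51% of Mmp13 and 6.41% of Mmp14. Timp2 made up 98.2% of the inhibitor UMIs in macrophages, whereas Timp3 made up 81.1% in endothelial-like cells. These are shares of UMIs and were not corrected for transcript length or capture.

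Within macrophages, transcripts of Mmp13 were more concentrated in few cells than those of Mmp12, Mmp14 and Timp2, though under the 50% limit given below. The 83 macrophages (5%) richest in Mmp13 held 46.9% of its UMIs (46.2 to 47.7), and 92 cells held the upper 50%. The corresponding shares in the richest 5% were 19.8% for Mmp12, 17.2% for Timp2 and 16.5% for Mmp14. Over the 6337 genes with at least 500 macrophage UMIs the median share was 25.5% (quartiles 20.2 to 32.1), and 95.5% of these genes were below Mmp13. The 5% of macrophages with the most RNA held 10.5% of all UMIs. At the limit of 50% in the richest 5%, 0 of 4 members with at least 500 UMIs passed, where 3.61% of genes did. Thinning every macrophage to 5000 UMIs gave 48.1% for Mmp13, so its share was as large at equal depth.

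Per cell, 831 macrophages had 0 UMIs of Mmp13, 202 had 1, and 28 had over 100 UMIs, which together made 22.3% of its transcripts. For Mmp12 the median was 64 UMIs (quartiles 13 to 152) and the richest cell had 671 UMIs. Mmp14 had a median of 6 UMIs per macrophage (quartiles 3 to 10), and Timp2 a median of 3 (quartiles 2 to 5). Mmp12 thus spanned a wide range of levels among cells that nearly all held it, and Mmp13 ran from 0 UMIs through low counts, with 117 macrophages at 3 to 5 UMIs and 87 at 6 to 10, to a few cells with many.

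**Figure D2:**
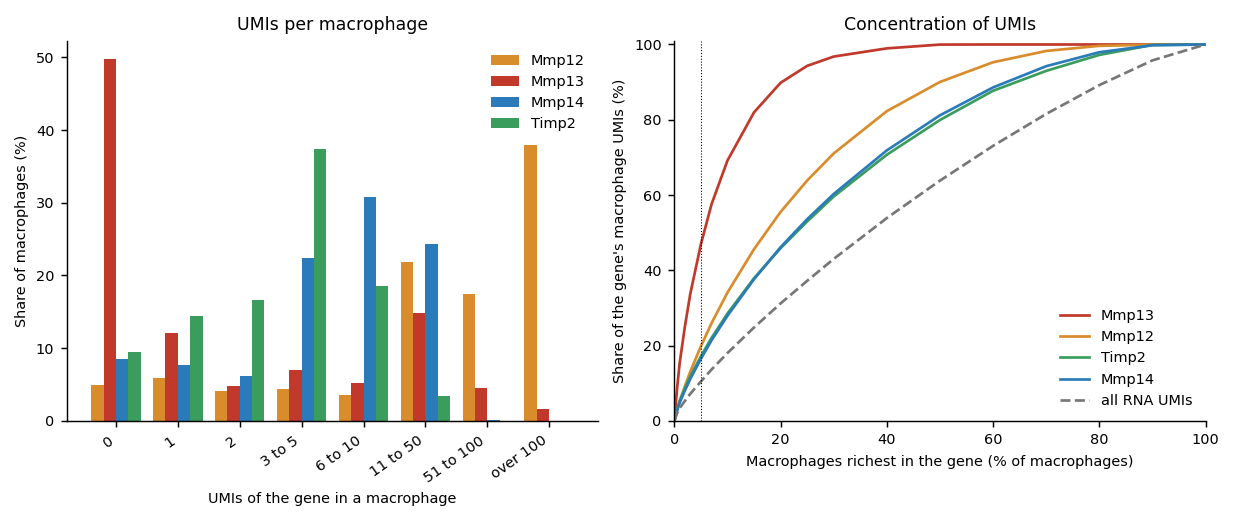
Left, share of 1669 macrophages (%) by the number of UMIs of Mmp12, Mmp13, Mmp14 and Timp2 they held. Right, share of each gene's macrophage UMIs (%) held by the richest macrophages (% of 1669), with all RNA UMIs as the dashed line and 5% as the dotted line. The Mmp13 curve reaches 46.9% at 5% of cells, above the other 3 genes at 16.5% to 19.8%.

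The sparse members were each dominated by single cells. The macrophage richest in Mmp10 held 77 of 230 UMIs (33.5%), the next ones held 33, 20, 14 and 9, and 3 cells held over 50%. For Mmp19 the richest cell held 41 of 230 UMIs (17.8%) and the next 21. The richest cell held 16 of 23 UMIs of Timp1 and 26 of 96 UMIs of Timp3. Comparisons of these 4 genes between groups of macrophages are therefore given with and without the richest cell.

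The 838 macrophages with a UMI of Mmp13 had Mmp12 at 5743 CPM, against 3241 CPM in the 831 without one, at median depths of 21336 and 20119 UMIs. Their Mmp14 level was 377 CPM, against 308 CPM, and their Timp2 level 168 CPM, against 182 CPM. Over the 1669 macrophages, Pearson's r of log-scaled levels was 0.28 between Mmp12 and Mmp13, 0.23 between Mmp13 and Mmp14 and 0.10 between Mmp12 and Mmp14. Timp2 had r of -0.06 with Mmp12, -0.05 with Mmp13 and -0.03 with Mmp14. All cells came from 1 library, and these values are descriptions.

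Mmp12 and Mmp13 were lower in macrophages with much CD9 on their surface, and Mmp14 and Timp2 were at nearly the same level in both. CD9, a tetraspanin, and CD206, the mannose receptor encoded by Mrc1, were read as antibody tags, and macrophages were ranked by tags within groups of like RNA depth. The upper 30% (499 CD9-high cells) were compared with the lower 30% (509 CD9-low cells). Cd9 RNA checked the ranking, at 395 CPM in CD9-high cells against 45.1 CPM in CD9-low cells (ratio 8.75). Of the 8 members with at least 20 UMIs, 2 were at least 1.5-fold higher in CD9-high macrophages and 3 at least 1.5-fold lower, where 6.51% and 3.12% of all genes with at least 100 UMIs were.

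Along the CD9 deciles from low to high, Mmp12 was at 5332, 5582, 5477, 4381, 4558, 4726, 4686, 3902, 3791 and 3241 CPM. The lowest 3 deciles were the highest and the top decile the lowest. CD9-high macrophages had 3644 CPM, against 5463 CPM in CD9-low macrophages, a ratio of 0.667 (0.659 to 0.676), which lies just inside the 1.5-fold limit, so Mmp12 is not among the 3. Most of both groups held the gene, 93.4% of CD9-high and 97.4% of CD9-low macrophages.

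Mmp13 was at 718, 496, 577, 456, 428, 338, 433, 599, 230 and 305 CPM along the same deciles. The series did not fall evenly, since the eighth decile stood above all but the first. CD9-high macrophages had 377 CPM, against 597 CPM in CD9-low macrophages, a ratio of 0.631 (0.607 to 0.656). A UMI was found in 45.3% of CD9-high and 53.4% of CD9-low macrophages. Leaving out each macrophage cluster in turn gave ratios of 0.634 to 0.689 for Mmp12 and 0.554 to 0.706 for Mmp13. Mmp13 was on the near side of the 1.5-fold limit without cluster 0 (0.706), cluster 2 (0.698) or cluster 4 (0.674).

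Mmp14 stayed between 303 and 369 CPM over the CD9 deciles, with 341 CPM among CD9-high macrophages, against 348 CPM among CD9-low ones (ratio 0.980; 0.936 to 1.03). Timp2 stayed between 160 and 194 CPM, with 177 CPM among CD9-high macrophages, against 176 CPM among CD9-low ones (ratio 1.01; 0.945 to 1.07). Both intervals lie well within 1.5-fold of equal levels.

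**Figure D3:**
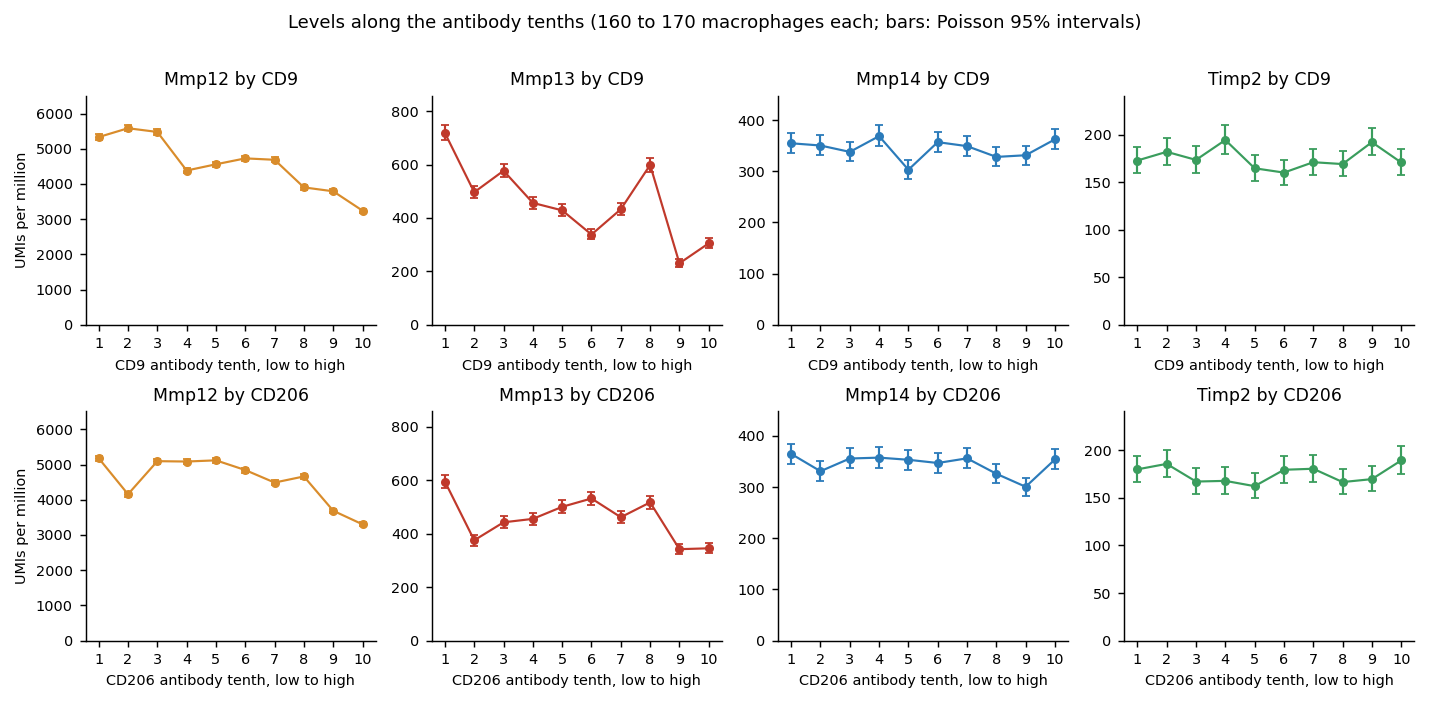
Levels of Mmp12, Mmp13, Mmp14 and Timp2 in CPM in the 10 groups of 160 to 170 macrophages ranked by CD9 tags (top) and CD206 tags (bottom), low to high. Points are summed levels and bars Poisson 95% intervals. Mmp12 stands at 5332 CPM in the first and 3241 CPM in the last CD9 decile, while Timp2 stays between 160 and 194 CPM.

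The other members past the limit rested on 1 or a few cells. Mmp19 had 86 UMIs in CD9-high and 44 in CD9-low macrophages (ratio 1.87), and 0.982 without its richest cell. Mmp10 had 38 and 69 UMIs in CD9-high and CD9-low macrophages (0.527), and 1.01 without the richest cell of these groups. Single CD9-low cells held 33, 20 and 14 of the 69 UMIs. A UMI of Mmp10 was found in 13 CD9-high and 5 CD9-low macrophages. Timp1 had 4 and 17 UMIs (0.225), and 3.82 (0.378 to 188) without its richest cell. Timp3 had 31 and 18 UMIs (1.65; 0.894 to 3.13), and 1.01 without it. With its richest cell left out, none of these 4 had an interval that excluded equal levels.

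Summed markers of other cell types also differed between the CD9 groups. The 9 endocrine markers summed to 2548 CPM in CD9-high macrophages, against 3715 CPM in CD9-low ones, the 8 endothelial markers to 23.6 and 10.4 CPM, and the 8 monocyte markers to 51.2 and 15.4 CPM, with none of these genes at 0 in either group. Against these sums, Sst was higher and the monocyte marker F13a1 lower. Ccr2 gave 38.4 CPM of the monocyte and Pecam1 12.5 CPM of the endothelial sum in CD9-high macrophages. Markers of migratory dendritic cells summed to 67.4 and 38.1 CPM, of type 2 conventional dendritic cells to 348 and 295 CPM, and of type 1 to 902 and 1159 CPM. Sirpa and Itgax gave 158 and 153 CPM of the type 2 sum in CD9-high macrophages, and Cadm1 and Irf8 641 and 202 CPM of the type 1 sum. All of these were higher in macrophages than in other cells, so the sums are not specific to dendritic cells. Of 7 type 2 markers tested by CD9, 4 were at least 1.5-fold higher and Clec10a lower. Of 6 type 1 markers, Xcr1 was higher and Clec9a lower. The 18 immediate-early and heat-shock genes summed to 7262 CPM in CD9-high macrophages, against 9061 CPM in CD9-low ones. The part of the endothelial, monocyte, dendritic and heat-shock differences in the levels of Mmp12 and Mmp13 was not tested. For endocrine and acinar RNA, leaving out the richest 10% of cells gave ratios of 0.628 for Mmp12 and 0.604 for Mmp13.

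For Mmp12 and Mmp13 the ratios by CD206 were nearer to 1 than those by CD9, and whether they differ was not tested. Tags were few, with a median of 9 per macrophage, and Mrc1 RNA was 70.2 CPM in CD206-high and 4.25 CPM in CD206-low macrophages. Cd9 RNA was also higher in CD206-high macrophages, at 266 CPM against 178 CPM. Mrc1 RNA was 1.83 times as high in CD9-high as in CD9-low macrophages, so the CD9 and CD206 groups were not separate. Mmp12 had 3887 CPM in CD206-high macrophages and 4807 CPM in CD206-low macrophages (ratio 0.809; 0.798 to 0.819). In the top 2 of the CD206 deciles it stood at 3687 and 3300 CPM, below the 4155 to 5178 CPM of the lower 8. Mmp13 had 401 CPM in CD206-high and 471 CPM in CD206-low macrophages (ratio 0.852; 0.818 to 0.887), and the ratio was 0.994 without cluster 4. Ratios were 0.930 (0.888 to 0.974) for Mmp14 and 0.984 (0.924 to 1.05) for Timp2. The endocrine markers summed to 2151 CPM in CD206-high macrophages, against 3741 CPM in CD206-low ones, with 6 of 9 lower. The monocyte markers summed to 58.1 and 23.8 CPM, and the endothelial markers to 21.1 and 12.7 CPM. The part of these markers in the levels of the members was not tested.

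At the 1.5-fold limit, 1 member was higher in CD206-high macrophages and 2 were lower, where 2.8% and 1.62% of genes were. Mmp19 was the higher one, at 9.20 CPM with UMIs in 40 CD206-high cells, against 4.80 CPM with UMIs in 19 CD206-low cells (ratio 1.92; 1.36 to 2.73), and 1.52 (1.06 to 2.20) without its richest cell. Over the alternatives tried the Mmp19 ratio ran from 0.676 to 2.04, so its direction was not the same under all of them. Mmp10 was lower, with 22 UMIs in CD206-high and 92 UMIs in CD206-low macrophages (0.236; 0.141 to 0.379). The ratio was 0.367 (0.214 to 0.608) without the richest cell of these groups. Single CD206-low cells held 33, 20 and 14 of the 92 UMIs, so the difference rested on few cells. A UMI of Mmp10 was found in 8 CD206-high and 13 CD206-low macrophages. Timp1 had 3 UMIs in CD206-high and 18 in CD206-low macrophages, of which 16 came from the 1 cell named above, and the ratio was 1.47 (0.169 to 17.7) without it. Timp3 had 35 and 45 UMIs (0.767; 0.479 to 1.22), and 1.81 (1.01 to 3.35) without its richest cell.

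**Figure D4:**
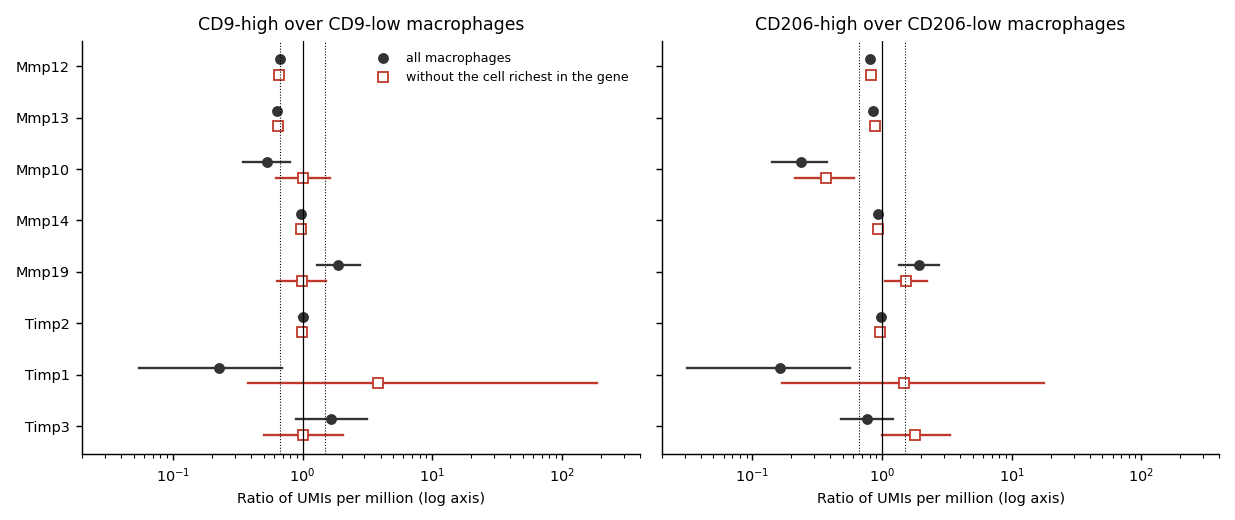
Ratio of CPM (log axis) in CD9-high over CD9-low macrophages (left) and CD206-high over CD206-low macrophages (right) for the 8 members with at least 20 UMIs, with exact 95% intervals. Black points hold all macrophages, open red squares leave out the cell richest in the gene, and dotted lines mark 1.5-fold. Mmp19 moves to 0.982 by CD9 without that cell, while Mmp12 stays at 0.662.

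Clusters of macrophages, formed without the members and without the other protease and inhibitor genes, differed in the members they held. Cluster 4, led by Cxcl1, Cd207 and Cxcl3, had the highest Mmp12, 7120 CPM against 4292 CPM in the other macrophage clusters (ratio 1.66; 1.64 to 1.68), and the highest Mmp13, 911 against 409 CPM (ratio 2.23; 2.15 to 2.32). Its Mmp14 was 468 CPM against 329 CPM. Cluster 3, led by Slc40a1, Npnt and Cd36, had high Mmp12 (6436 CPM) but low Mmp13 (299.9 CPM). Cluster 0, led by the interferon-induced Ifit3 and Cmpk2, had the converse, with Mmp12 at 3890 CPM and Mmp13 at 765 CPM against 390 CPM in the other clusters. Median CD9 tags were 247 in cluster 4 and 119 in cluster 3, against 2486 in cluster 5, where Mmp12 was 3411 CPM. Cluster 7, led by Ifnb1 and Pdpn, had a median of 1922 tags. Its Mmp12 was 4907 against 4565 CPM and its Mmp13 536 against 455 CPM, so not every cluster with much CD9 had lower levels.

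Mmp14 was highest in cluster 5, led by Gpnmb, S100a6 and Pltp, at 476 CPM, and in cluster 4. It was low in cluster 1, led by the heat-shock genes Hspa1a and Hspa1b, at 182 CPM against 379 CPM in the other clusters (ratio 0.479; 0.450 to 0.509), where 79.9% of cells held it. Cluster 10, led by Jun and Fosb, had the lowest Mmp12 at 2115 CPM and low Mmp13 (100.3 CPM) and Mmp14 (124 CPM). The lowest Mmp13 (53.3 CPM, 21 UMIs) and Mmp14 (88.8 CPM, 35 UMIs) were in cluster 12, with 29 cells, led by Tesk2. Timp2 varied least, from 149.9 CPM in cluster 7 to 299 CPM in cluster 6, whose median depth was 6060 UMIs.

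Mmp19 was 18.8 CPM in cluster 5 and 16.3 CPM in cluster 1, against 4.92 and 4.27 CPM in the other macrophage clusters. In cluster 5 it was found in 16.6% of cells, and the richest cell held 29.6% of the UMIs, whereas in cluster 1 that share was 40.2%. All 77 UMIs of Mmp10 in cluster 7 came from 1 cell. Cluster 12, with 29 cells, held Mmp10 in 17.2% of its cells at 20.3 CPM, from 8 UMIs.

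**Figure D5:**
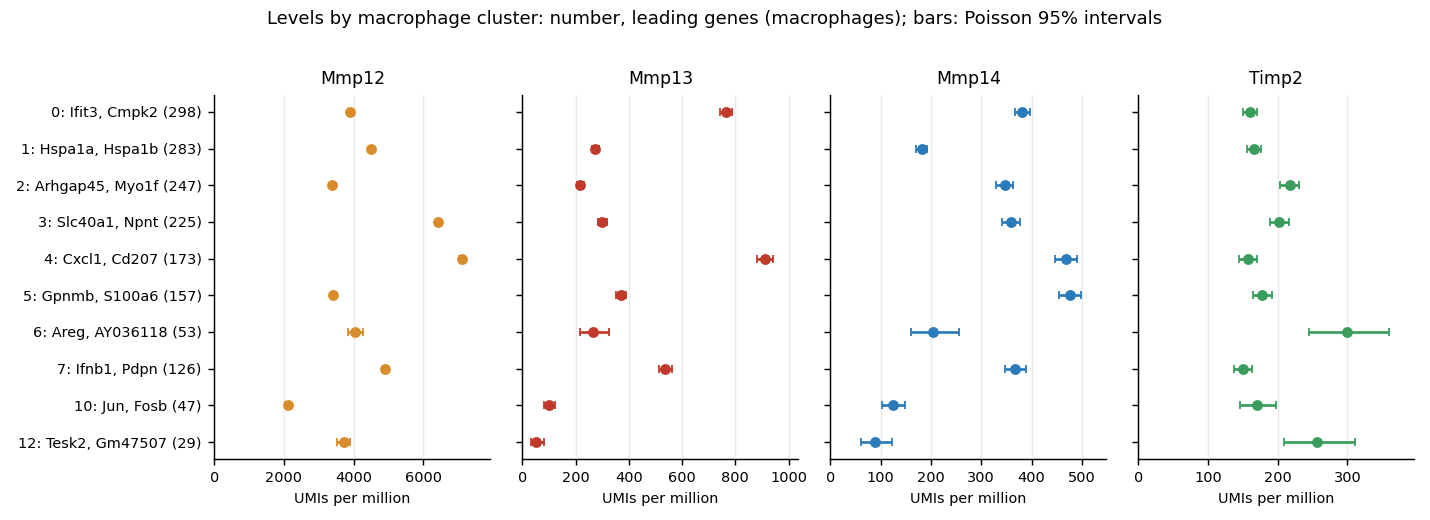
Levels of Mmp12, Mmp13, Mmp14 and Timp2 in CPM in 10 macrophage clusters, listed with number, leading genes and number of macrophages. Bars are Poisson 95% intervals, too short to see for most Mmp12 points. Cluster 4 stands highest for Mmp12 (7120 CPM) and Mmp13 (911 CPM), and cluster 1 is low for Mmp14 (182 CPM).

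Among 9729 genes with a UMI in at least 5% of macrophages, those whose levels followed each member most closely differed between members. For Mmp14 they were Marcks (r = 0.49), Slfn2 (0.48), Arl5c (0.47), Rassf4 (0.45) and Tnfaip2 (0.41), with Hspa1b at the opposite end (r = -0.41). For Mmp12 they were Dcstamp (0.33), which takes part in macrophage fusion, the scavenger receptor gene Cd36 (0.29), Lcp1 (0.27), Glipr1 (0.26) and Cdk6 (0.25). Those for Timp2 were Itm2b (0.31), C1qc (0.29), Ctsb (0.27) and Ctss (0.27). Those for Mmp13 were Mir155hg, Ppfibp1, Rapgef2, Bcl2a1d and Sdc4, with r of 0.25 to 0.26. The values are over 1669 cells of 1 library and share each cell's depth, and those under 0.3 are weak.

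The counts for lists of related genes below stand against the shares over all genes given above: 15.6% higher and 38.1% lower in macrophages, 6.51% and 3.12% by CD9, and 2.8% and 1.62% by CD206. Those shares are over genes with at least 100 UMIs, while list genes were tested from 20 UMIs, so the counts and shares are not like for like. Of the other metalloproteinases, 16 of 17 listed genes were in the table and 5 had at least 20 UMIs over macrophages and other cells. Of these Mmp28 was higher in macrophages, while Mmp2, Mmp8, Mmp24 and Mmp25 were lower. The median log2 ratio of these 5 was -1.51, against -0.34 over all genes tested. Among 12 other protease inhibitors tested, 3 were higher and 8 lower in macrophages. By CD9, 2 of 11 were higher and 2 lower, and by CD206 1 and 2. The cathepsin inhibitors Cst3 and Cstb had ratios of 2.25 and 3.28, Wfdc17 one of 6.12, and the granzyme inhibitor Serpinb9 one of 0.104.

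In the list of the plasminogen system and other metalloproteinase activators, 3 of 11 genes were higher in macrophages and 6 lower. The plasminogen system activates several metalloproteinase precursors. Plau, the urokinase gene, had 284 CPM in macrophages and 54.4 CPM in other cells, and its receptor gene Plaur 295 and 133 CPM. Plat, the tissue-type activator, had 1.88 and 31.9 CPM. Plau also differed by CD9, with 181 CPM in CD9-high macrophages, against 398 CPM in CD9-low ones (ratio 0.455; 0.431 to 0.480). Its ratio by CD206 was 0.527. By CD9, 3 of 10 genes in this list were higher and 2 lower, and by CD206 2 and 1. In the same list S100a10 and Anxa2, which form a plasminogen-binding complex, were 4.64 and 2.81 times as high in CD9-high as in CD9-low macrophages.

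Of the inhibitors, Slpi had 47.5 CPM in CD9-high macrophages, against 4.56 CPM in CD9-low ones. Of 16 ADAM and ADAMTS genes tested, 3 were higher in macrophages, with Adam17, which sheds membrane-bound TNF, at 276 CPM against 88.6 CPM in other cells, and 11 were lower. By CD9, 3 of 9 were higher and 0 lower, and by CD206 1 and 1. Adam8 and Adam19 were 2.40 and 2.14 times as high in CD9-high as in CD9-low macrophages.

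Genes of the matrix that these enzymes cut were mostly low in macrophages: of 21 tested, 18 were lower and 1 higher, with a median log2 ratio of -6.43. The higher one was Lgals3, at 1768 CPM in macrophages and 555 CPM in other cells. By CD9, 5 of the 7 matrix genes tested were higher and 1 lower. Of the higher ones only Spp1 had at least 100 UMIs, with a ratio of 2.95 and 21.9% of its UMIs in 1 cell. The others, Col4a1, Col4a2, Sparc and Vcan, were at 2.76 to 3.92 CPM in CD9-high macrophages, and the interval of Col4a1 held equal levels (0.984 to 3.63). Col4a1, a basement membrane collagen, had 2.77 CPM in macrophages, against 110 CPM in other cells. Of 14 surface partners, 7 were higher in macrophages, among them Cd44, Cd63, Sdc4 and Lrp1, which takes up metalloproteinase and inhibitor complexes, and 4 were lower. Lrp1 was also higher in CD9-high than in CD9-low macrophages, at 124 against 51.6 CPM, as 1 of 3 partners higher and 0 lower among 10 tested. Of 18 immediate-early and heat-shock genes, 9 were higher and 2 lower in macrophages than in other cells, 2 higher and 3 lower by CD9, and 0 in either direction by CD206.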

How the data were processed

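Gene and antibody counts are raw UMI counts per cell, deposited by the authors as 1 filtered matrix that Cell Ranger 8.0.1 wrote, per the file headers. Per the submitters' processing notes the genome build was mm10, and the sources used here do not give the rule for calling cells. Of 2237 barcodes, 2215 passed limits of at least 200 genes and no more than 10% mitochondrial UMIs. Scrublet's own threshold marked 14 cells, so the 40 with the highest scores (1.81%) were removed. Cells were clustered with scanpy 1.11.5 and leidenalg 0.10.2 (Python 3.11.15), with 74 protease, inhibitor and member genes left out. Classes of other cells were named from marker lists. Macrophage clusters took no name from these lists and were called so because a set share of their cells passed the macrophage limits. Macrophages had 36107668 UMIs in all, and other cells 6137995.

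UMIs were summed over cells and divided by the summed RNA UMIs. Ratios have exact conditional binomial 95% intervals, levels exact Poisson intervals and shares of cells Clopper-Pearson intervals. They cover counting error only, since 1 pooled sample allows no test. A member was counted at 1.5-fold with at least 20 UMIs over both groups, and background genes with at least 100. A count of 0 allows 3 UMIs. The script was tested on simulated data. Named genes were members, the 5 genes most correlated with each abundant member, up to 4 per list and direction past the limit with their interval, and cluster leaders, and a few others (Mmp2, Mmp8, Mmp24, Mmp28, Col4a1, Hspa1b, the chromosome 9 genes) were chosen after their values were seen. Promoter windows came from RefSeq (GRCm38.p6). The members and lists were chosen with earlier results of these data known. Alternatives varied the depth, C1q, fold and UMI limits, the ranking and its bounds, doublets and clusters. Values of some genes are not reported here.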

Additional observations from a re-analysis of the deposited data

Results flagged for a closer look

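The 212 kept cells with fewer than 5000 RNA UMIs (median 1526) entered no comparison, yet held UMIs of 7 members above the 3 that a count of 0 allows. Mmp12 had 1225 UMIs in 144 of these cells, a level of 2879 CPM. Mmp13 had 92 UMIs (216 CPM), Mmp14 had 67 (157 CPM) and Timp2 had 85 (199.7 CPM). Timp3 had 13 UMIs in 4 cells, Mmp9 had 4 UMIs in 1 cell and Mmp19 had 4 UMIs in 4 cells. Mmp10, with 0 UMIs, and Timp1, with 2, were not above that limit.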

How the results depend on the processing

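Of the members, 5 to 6 were higher and 2 to 4 lower in macrophages than in other cells under all 18 alternatives, and 0 passed the limit on concentration under all 8. Counts by antibody moved more. The count higher in CD206-high macrophages (1) was 0 with a UMI minimum of 10000, C1q of at least 4000 CPM, a fold of 2, upper against lower 50%, the cells richest in endocrine RNA left out, or macrophage cluster 2, 3, 4 or 12 left out. It was 2 without the cell richest in each member, with the upper against the lower 10%, or with no UMI minimum for a member. The count lower in CD206-high macrophages (2) was 1 with C1q of at least 4000 CPM, without the richest cells, or without cells of other classes' clusters, and 3 without the cells richest in endocrine RNA or without cluster 2. The count higher in CD9-high macrophages (2) was 0 without the richest cells or at a fold of 2, and 1 with means over cells, the upper against lower 50%, or without other classes' clusters or cluster 1, and 3 with no UMI minimum. The count lower in CD9-high macrophages (3) was 1 at a fold of 2, with raw tags ranked or with the upper against lower 50%, and 0 without cluster 0. It was 4 with doublets kept, without the cells richest in endocrine RNA, or without cluster 1, 6, 7, 10 or 12.

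Directions turned for sparse members. By CD9, Timp1 was 4.83 with C1q of at least 4000 CPM and 3.82 without its richest cell, Mmp10 was 1.01 without its richest cell, 1.21 with the upper against lower 50% and 1.11 without cluster 0, Mmp19 was 0.982 without its richest cell, and Timp3 was 0.927 with the upper against lower 50%. By CD206, Mmp19 was 0.676 with C1q of at least 4000 CPM and 0.945 without cluster 2, and Timp1 was 1.47 without its richest cell and 1.49 without other classes' clusters. Timp3 by CD206, 0.767 with an interval that held 1, was 1.81 without its richest cell, 1.39 with raw tags ranked, 1.28 without other classes' clusters, 5.45 with the upper against lower 10% and 1.001 with means over cells. Timp3 in macrophages over other cells was 5.14 without endothelial-like cells. The cause was not tested. Mmp12 stayed lower by CD9 (0.608 to 0.7999) and CD206 (0.637 to 0.872) under every alternative, and Mmp13 lower by CD9 (0.425 to 0.708). With C1q of at least 4000 CPM, the ratio in macrophages over other cells was 1.78 for Mmp10 (19.5 at 2000 CPM), 1.80 for Mmp12 (8.68), 1.81 for Mmp13 (7.32), 2.52 for Mmp14 (6.18) and 2.51 for Timp2 (4.67). At the 4000 CPM limit, the other cells also held the cells with C1q of 2000 to 4000 CPM. Leaving out clusters or classes was chosen after seeing the data. Both libraries come from the same cells, which is how tags and RNA were matched. With 1 sample, no paired comparison between samples was possible.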
